A study of Tuber borchii with 4 samples.

Results

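The gene models described here are 77 of the 12346 models of the truffle *Tuber borchii* whose transcripts were more abundant in both woody-plant-based media than in both complex media. They were selected on the counts of all 4 libraries. A gene was included when the lower of its values in WPG and WPGY was at least 10 counts per 1000000 counts of the library (CPM), when that value was at least 4 times the higher of PDB and MPY, and when PDB and MPY, with 0.1 CPM added to each, lay less than 3-fold apart. A pair of very abundant chaperone genes also met these limits and was left out. With them, 79 of the 7228 models that reached 10 CPM in at least 1 library met the rule, which is 1.09%. Because the rule used these values, the differences between the kinds of media given below describe the genes and are not findings about them.

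The vegetative mycelium of strain SP1 was kept in submerged culture, static and in darkness at 22 °C, and each medium gave 1 RNA library. WPG held woody plant medium with 20 g/L glucose, and WPGY held the same with 5 g/L yeast extract. Of the complex media, PDB was potato dextrose broth at 20 g/L, and MPY combined maltose (35 g/L) with peptone and yeast extract (5 g/L each). By their labels the woody-plant cultures were harvested at day 65 and the complex ones at day 85, whereas the count columns are named for day 64 in WPG and WPGY, day 85 in PDB and day 83 in MPY. The kind of medium and the day of harvest therefore cannot be told apart. The libraries held between 47969567 counts (MPY) and 157335190 counts (PDB), so that 1 count was worth between 0.00636 and 0.0208 CPM. With no replicates, intervals are given for counting error only, at 95%, and no test between media was made. In RNA from a whole mycelium, fewer hyphae of a kind and less transcript per hypha cannot be told apart.

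*T. borchii*, the bianchetto truffle, is an ascomycete that lives in symbiosis with tree roots and whose mycelium can be grown without its host. Woody plant medium is a mineral salt recipe first made for plant tissue culture. Potato broth, peptone and yeast extract are made from whole tissues or cells and bring many nutrients at once. Fungi adjust the transcription of transporters, enzymes and stress proteins to the carbon and nitrogen sources at hand. In many filamentous fungi, genes that act in one pathway lie side by side in the genome and are transcribed together.

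The median level of the 77 genes was 31.4 CPM in WPG and 30.6 in WPGY, but 3.95 in PDB and 3.21 in MPY. The ratio of the lower woody-plant library to the higher complex library had a median of 5.90, or 2.56 on the log2 scale. Over the 7228 models that reached 10 CPM in 1 library, the median of the same ratio was 0.828, or -0.27 on the log2 scale. For the members, the ratio lay below 5 in 25 of the 77 genes, from 5 to below 10 for 31, from 10 to below 20 for 12, and at 20 or above for 9. Ratios below 10 thus made up most of the set, and a few genes stood far above them. Together the 77 genes took 1.80% of all counts in WPG and 1.74% in WPGY, against 0.203% in PDB and 0.210% in MPY. Their summed share was therefore 8.87 times as high in WPG as in PDB, and 8.56 times as high in WPG as in MPY.

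**Figure D1:**
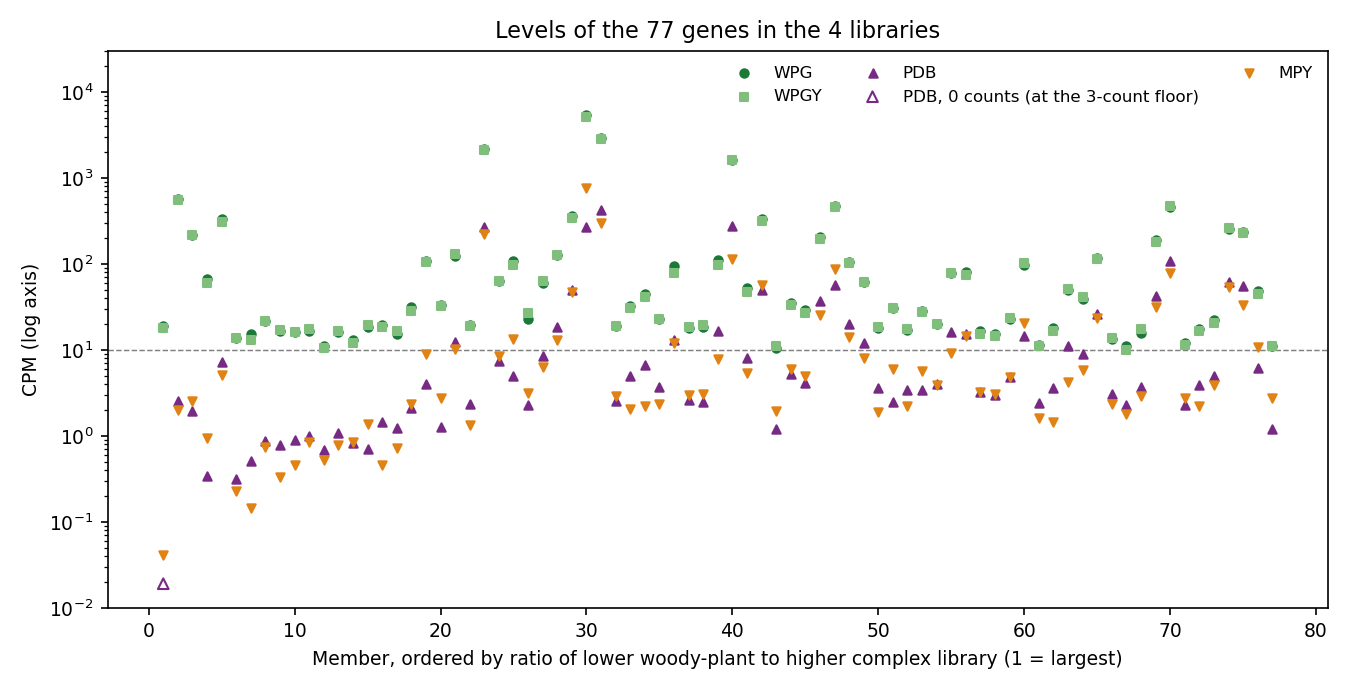
Level of each of the 77 genes in the 4 libraries, in CPM on a log axis, with the genes ordered by the ratio of the lower woody-plant library to the higher complex library; the dashed line marks 10 CPM and the open symbol stands for the 1 value of 0 counts, drawn at the floor of 3 counts. The WPG and WPGY symbols nearly coincide for every gene, and 10 genes lie under 1 CPM in both complex media.

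Limits of the rule cut through a continuous range of values. Genes 1033627 (10.04 CPM in the lower woody-plant library) and 1130392 (10.6 CPM) were just inside the minimum level, whereas 683156 (9.86 CPM) and 1054817 (9.77 CPM) were just outside it. At the 4-fold limit, genes 977109 (4.01-fold) and 1082047 (4.09-fold) were inside, and 968873 (3.97-fold) and 1036889 (3.93-fold) were outside. At the limit between PDB and MPY, genes 966530 (2.91-fold apart) and 151253 (2.79-fold) were inside, and 1026568 (3.13-fold) and 921416 (3.19-fold) were outside. The limit between PDB and MPY alone kept out 21 models that met both other limits. Before any limit on PDB against MPY, 100 of the 7228 models (1.38%) passed the 4-fold limit in favour of the woody-plant-based media. In the opposite direction, 55 models (0.761%) passed it in favour of the complex media.

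**Figure D2:**
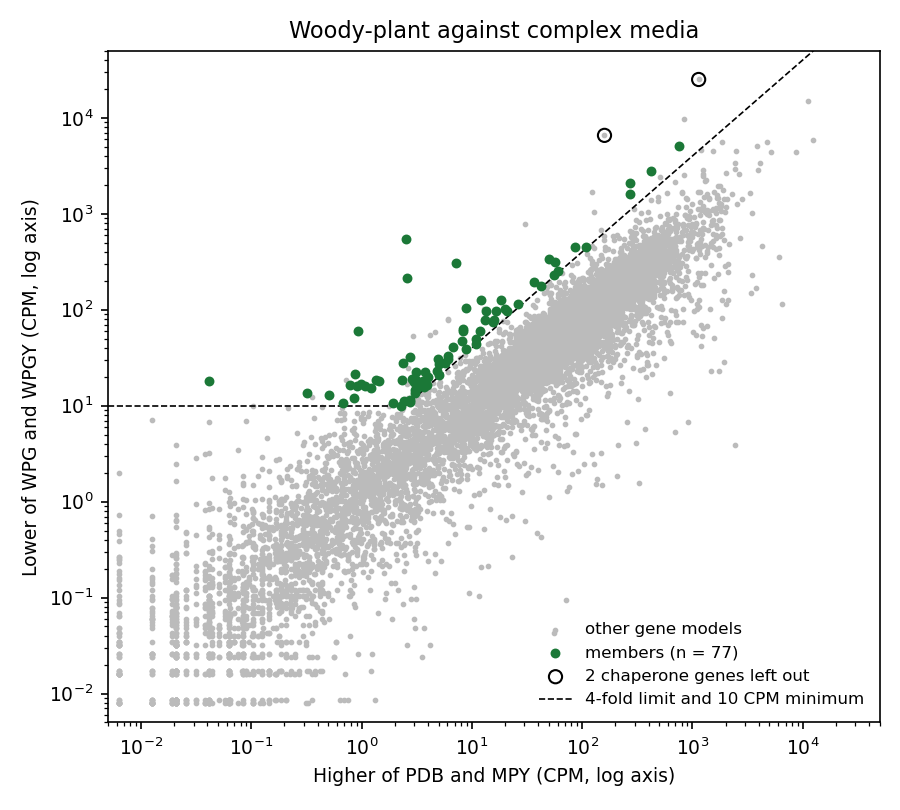
Lower of the WPG and WPGY values against the higher of the PDB and MPY values for every model with counts on both axes, in CPM on log axes; dashed lines show the 10 CPM minimum and the 4-fold limit, green points the 77 genes and open circles the chaperone genes left out. Of the 77 green points, 25 have a ratio below 5 and 9 a ratio of 20 or above, and grey points beyond both lines are models whose PDB and MPY values were 3-fold or more apart.

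Transcripts of 4 genes made up most of the counts of the set, with 66.4% of its counts in WPG and 66.3% in WPGY. The same 4 genes held 60.6% of the counts of the set in PDB and 66.0% in MPY, so that the weight of the leading genes was similar at both levels. CPM is not divided by length. Ranks among all models and ratios between neighbouring genes are given in CPM, so they also reflect the spans of the models. Some of the abundant and of the short genes were also compared as length-scaled counts. In these, each count is taken per bp of its model's span and the library is rescaled to 1000000. On that scale the order of the first genes changed, since the models differ in span.

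Gene 151253 (positions 102267 to 104224 on sequence 148 of the Tubbor1 assembly) had the highest CPM of the set. It had 5311 CPM in WPG and 5044 in WPGY, but 269.6 in PDB and 752 in MPY. It was the 8th most abundant transcript of WPG in CPM and ranked 785 in PDB. Its level in MPY was 2.79 times that in PDB, close to the limit of 3-fold. The lower woody-plant value was 6.71 times the MPY value (interval 6.64 to 6.78), and no function was analysed here for this model.

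Gene 1065197, at positions 31896 to 32796 on sequence 126, had 2899 CPM in WPG and 2805 in WPGY, but 419.9 in PDB and 299.7 in MPY. The lower woody-plant value was 6.68 times the PDB value. Its model spans 901 bp against 1958 bp for 151253. In length-scaled counts it was the highest of the 77, with 4312 in WPG against 3635 for 151253.

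Gene 19986, at positions 200794 to 202220 on sequence 100, had 2156 CPM in WPG and 2092 in WPGY, but 269.0 in PDB and 221 in MPY, a ratio of 7.77. The study's annotation describes its product as a predicted zinc-finger protein, a class of proteins that fold around zinc ions and often bind nucleic acids or other proteins. Gene 1125095, at positions 133332 to 137196 on sequence 90, had 1591 CPM in WPG and 1618 in WPGY, but 273 in PDB and 115 in MPY, and was 2.37 times as high in PDB as in MPY. Its model spans 3865 bp. With length-scaled counts its level in WPG was 552, and the shorter model 1104324, of 453 bp, stood above it with 1076.

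The next gene by CPM, 1120143, had 568 CPM in WPG and is described with its neighbours. Gene 1050273 had 474 CPM in WPG and 454 in WPGY, but 56.7 in PDB and 86.8 in MPY. Gene 991142 had 453 CPM in WPG and 465 in WPGY, but 107 in PDB and 77.6 in MPY, and its ratio of 4.22 put it near the limit. Gene 1104324 had 364 CPM in WPG and 340.4 in WPGY, but 49.7 in PDB and 47.1 in MPY, so that both complex media were close to each other. Gene 1066844 had 327 CPM in WPG and 314 in WPGY, but 50.1 in PDB and 56.7 in MPY. Of the remaining genes, 30 lay between 10 and 20 CPM in their lower woody-plant library.

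The largest ratio of the set belonged to gene 973256 (positions 193093 to 194081 on sequence 55). It had 18.7 CPM in WPG and 18.0 in WPGY, no count in PDB and 2 counts, or 0.0417 CPM, in MPY. The count of 0 in PDB is drawn at the floor of 3 counts, or 0.0191 CPM, which is a setting and not an interval. The ratio of WPGY to MPY was 432 with an interval from 119 to 3568, so the size of the ratio is poorly known and both complex media were near the limit of detection.

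Gene 1120143 (positions 8333 to 9740 on sequence 22) combined a high level with a large ratio. It had 568 CPM in WPG and 547 in WPGY, but 2.53 in PDB and 2.02 in MPY, 216 times as high in WPGY as in PDB (interval 196 to 239). In WPG it ranked 208 among all models, and in PDB it ranked 7670. Gene 1053269, at positions 55180 to 56197 on sequence 214, had 216 CPM in WPG and 217 in WPGY, but 1.92 in PDB and 2.56 in MPY, a ratio of 84.3 (interval 70.6 to 101).

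The short model 895199, of 360 bp, had 66.9 CPM in WPG and 60.2 in WPGY, but 0.337 in PDB and 0.938 in MPY, a ratio of 64.2. Gene 1028216, at positions 50451 to 52848 on sequence 176, had 332 CPM in WPG and 307 in WPGY, but 7.14 in PDB and 5.11 in MPY, a ratio of 43.0. In both genes the lower woody-plant value was thus more than 40 times the higher complex value. Gene 1087384 followed with a ratio of 42.7, gene 1074162 with 25.2, gene 1077219 with 24.8, gene 369077 with 21.1 and gene 254699 with 17.7. These last 5 genes had between 12.8 and 21.8 CPM in WPG and WPGY.

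Near absence in the complex media was a feature of a part of the set. In PDB, 66 of the 77 genes had at least 1 CPM, and in MPY 64 had. Under 1 CPM in both complex media lay 10 genes, namely 973256, 895199, 1087384, 1074162, 1077219, 369077, 254699, 1016757, 1130392 and 1129027. Of these, 895199 was the only one above 50 CPM in the woody-plant-based media. With fewer than 10 counts in a library, a value rests on little evidence, and this was the case for 1 gene in PDB and 2 genes in MPY.

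Function text was at hand for a part of the genome. The part of the study's annotation used here covered 827 models, and 459 of them carried a KOG or eggNOG description (KOG, Eukaryotic Orthologous Groups). Of the 77 genes, 5 fell in this part and 2 had a description, genes 19986 and 1047478. For the other 75 genes no function was analysed here, and no name is given to them. Gene 1047478 was annotated as subunit 10 of the anaphase-promoting complex, a ubiquitin ligase that marks cell-cycle proteins for degradation. It had 128 CPM in WPG and 128 in WPGY, but 18.2 in PDB and 13.2 in MPY, a ratio of 7.00 (interval 6.72 to 7.28).

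Chaperones help other proteins to fold, and those left out of the set lay in the same corner of the plot of woody-plant against complex media. The more abundant one, which the study places in the Hsp20 family of small heat-shock proteins, was 22.0 times as high in its lower woody-plant library as in its higher complex library, and the other was 41.1 times as high. Of the 8 models that the keyword list for chaperones found in the annotated part, 7 reached 10 CPM and none passed the 4-fold limit in either direction. The chaperone genes left out of the set were not among these 8 models. The list also holds a Cu2+ chaperone (1117909), a copper chaperone (1101126) and a chaperone-dependent ubiquitin ligase (981766). Its numbers are therefore not those of folding chaperones alone. At a 2-fold limit, 3 of the 7 were higher in the woody-plant-based media and none in the complex media. Among all 7228 models, 4.98% passed the 2-fold limit in favour of the woody-plant-based media and 3.17% in favour of the complex media. The 3 were the HSP90 co-chaperone p23 (982618), the chaperonin subunit CCT5 (24915) and an HSP70 model (1192977). The co-chaperone had 1747 CPM in WPG and 1672 in WPGY, but 276 in PDB and 806 in MPY. CCT5, part of the ring that folds actin and tubulin, had 377 CPM in WPG and 375 in WPGY, but 148 in PDB and 122 in MPY. The HSP70 model had 48.1 CPM in WPG and 47.0 in WPGY, but 14.4 in PDB and 17.1 in MPY. The other models of the list passed the 2-fold limit in neither direction. For prefoldin subunit 5 (963539) the lower woody-plant library was 0.936 times the higher complex library. The same ratio was 0.717 for 981766, 0.663 for 1101126 and 0.620 for 1117909. A second HSP70 model (980951) had a ratio of 0.661, but its level was at most 1.77 CPM in any library. With 1 CPM added to each mean, the median log2 ratio of mean woody-plant to mean complex CPM was 0.04 over the 7 models at 10 CPM. Over all 7228 models the median was -0.04.

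Of the other keyword lists, 2 held a member of the set. Their counts stand beside shares of 1.38% of all 7228 models past the 4-fold limit in favour of the woody-plant-based media and 0.761% in favour of the complex media. The list for ubiquitin and the proteasome had 15 models at 10 CPM, of which gene 1047478 passed the 4-fold limit in favour of the woody-plant-based media and none passed it in the other direction. The list for transcription factors and zinc fingers had 19 such models, of which 1, gene 19986, passed in this direction and 1 in the other. The list for cytochromes P450 had 2 such models, of which 1 passed in favour of the complex media. No model passed the limit in either direction in the lists for redox enzymes, transporters, carbohydrate-active enzymes and the cell wall, lipids, nitrogen and amino acids, kinases and phosphatases, proteases, mitochondrial energy genes, ribosomes, and the histones, tubulins, actins and septins of growing hyphae. Of the 8 models of that last list, 6 reached 10 CPM, and such genes do not set mycelium apart from other fungal tissue. No model matched the list for transposon-like genes. The median log2 ratio of a list ran from -2.46 for cytochromes P450 to 0.53 for lipids, which had a single such model, with 0.11 for ubiquitin and the proteasome and -0.32 for transcription factors. The lists were small, so a count of 0 or 1 says little about a list.

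The position of a gene was not used by the rule. The 77 genes lay on 61 of the 617 numbered sequences with gene models. The 77 genes had 153 neighbouring positions, 1 on each side of a gene except at the end of a sequence, so that a model between 2 of the genes is counted at both. A member stood at 18 of these positions, or 11.8%, whereas the set makes up 0.624% of all models. Models that reached 10 CPM, as members had to, also lay beside each other more often than their share. They held 76.2% of the positions beside such models and make up 58.55% of all models. In all, 17 of the 77 genes lay directly beside another. In the 39 genes that met the same limits with the media exchanged, high in both complex media, 4 of 75 neighbouring positions (5.33%) held a gene of their own set, which makes up 0.316% of all models. The difference between the sets was not tested. At the 135 positions held by models outside the set, 10 (7.41%) passed the 2-fold limit in favour of the woody-plant-based media. Of the 14002 positions beside all models that reached 10 CPM, counted in the same way but with members of the set included, 3.26% did so.

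Within 20 kb of each other, a distance chosen after the data were seen, members lay in 8 places, which together held 19 of the 77 genes. In 6 of these places no other model lay between the members. The largest group was on sequence 22 of the assembly, with 5 members from position 8333 to 37542. These members were 1120143, 1074162, 1120145, 327540 and 966530.

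All 8 models in that stretch of 29210 bp were at least 2 times as high in the lower woody-plant library as in the higher complex library. The first, 1120143, had the ratio of 216 given above. Next to it, 1074162 had 15.1 CPM in WPG and 12.8 in WPGY, but 0.508 in PDB and 0.146 in MPY. After a gap of 416 bp followed 1120145, with 32.8 CPM in WPG and 32.0 in WPGY, but 1.26 in PDB and 2.75 in MPY. The first 3 models of the stretch thus shared a low level in the complex media but differed in the level they reached in the woody-plant-based media.

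The 3 models in the middle of the stretch were not members, each because it missed 1 limit or more. Model 327503 had 10.5 CPM in WPG and 8.82 in WPGY, but 4.0 in PDB and 3.44 in MPY, a ratio of 2.20. Model 966650 reached a ratio of 7.69 but only 8.58 CPM in WPG. Model 1074171 reached 62.4 CPM in WPG and 59.2 in WPGY, but 4.63 in PDB and 1.19 in MPY, and fell out because PDB and MPY were too far apart. The stretch closed with the members 327540 and 966530. Gene 327540 had 19.5 CPM in WPG and 18.2 in WPGY, but 1.45 in PDB and 0.459 in MPY. Gene 966530 had 45.0 CPM in WPG and 41.0 in WPGY, but 6.68 in PDB and 2.23 in MPY.

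The models on either side of the stretch did not pass the 2-fold limit. Model 966603, before it, had 27.6 CPM in WPG and 26.5 in WPGY, but 64.3 in PDB and 30.0 in MPY. Model 327563, after it, was 1.97 times as high in its lower woody-plant library, and 966512, the next, had 101 CPM in WPG against 157 CPM in PDB. In the second part of the stretch, from 1074171 to 966530, PDB was above MPY in each of the 3 models, by 2.99 times in 966530 and 3.16 times in 327540. This was not particular to that part. PDB was also above MPY in the earlier models, by 3.48 times in 1074162, except in 1120145, with 1.26 CPM in PDB and 2.75 in MPY.

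**Figure D3:**
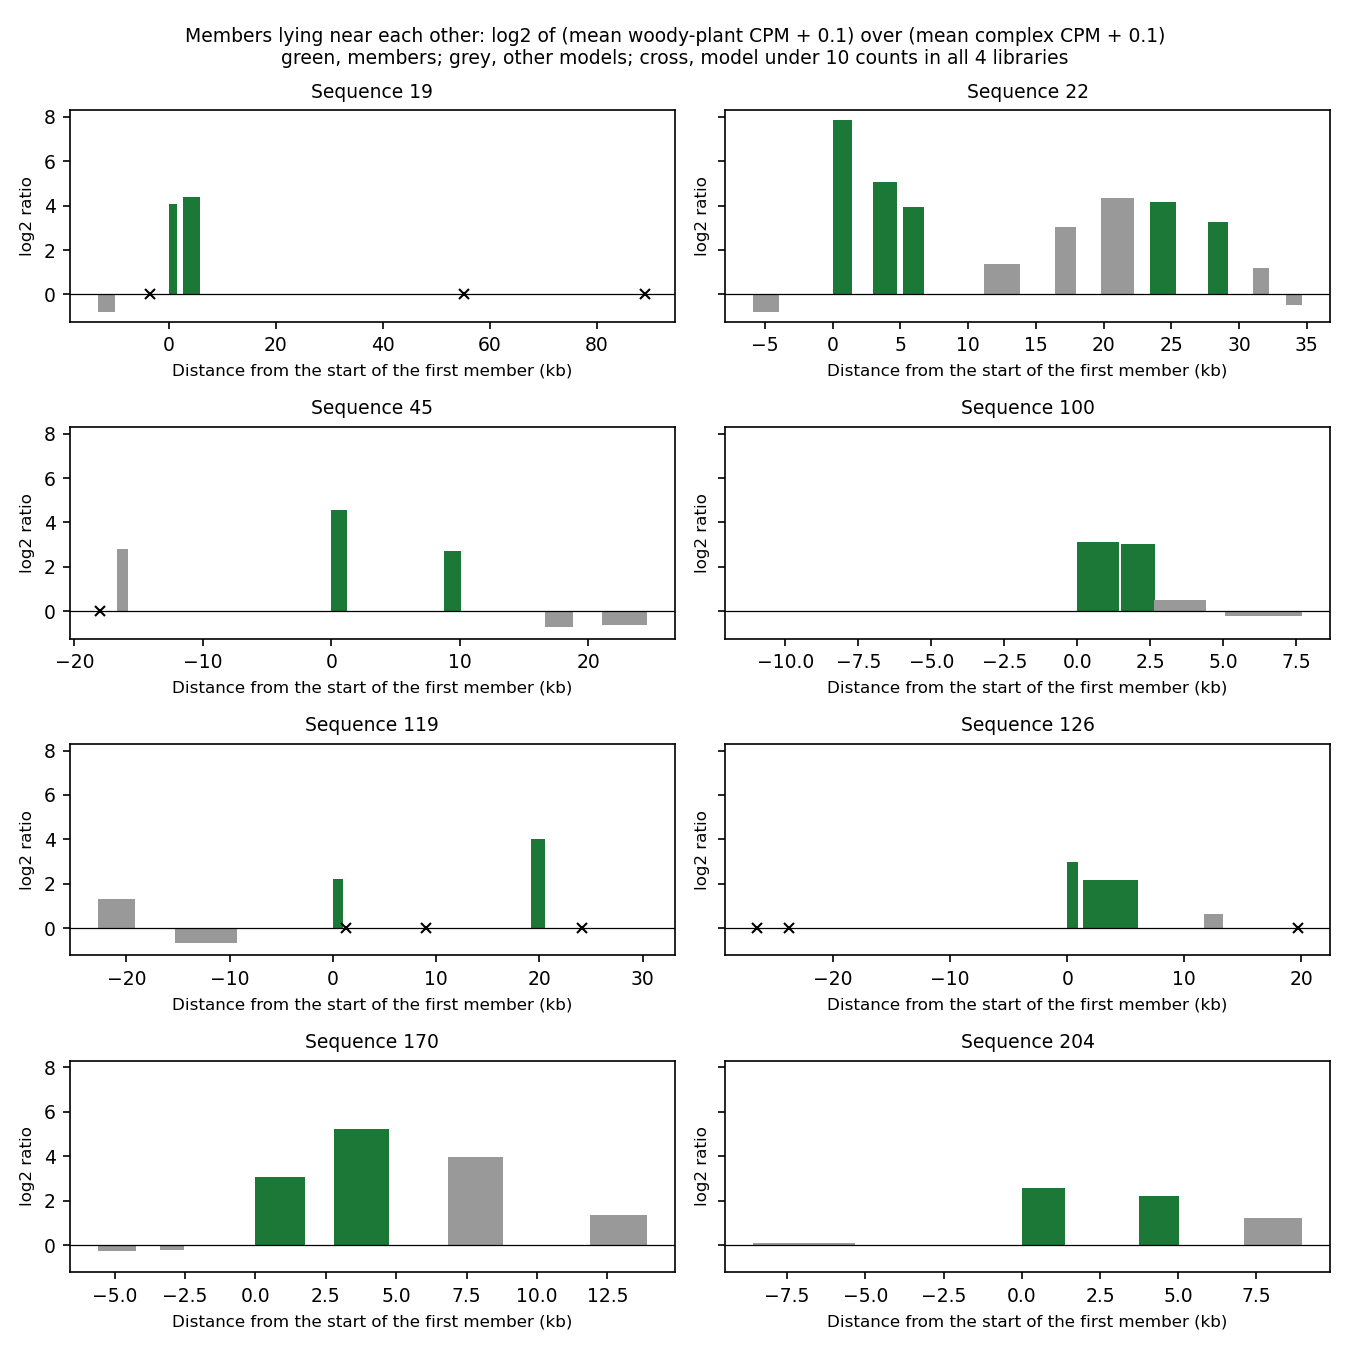
The 8 places where members lie within 20 kb of each other, with each model drawn at its distance in kb from the start of the first member and its height giving the log2 of the mean woody-plant CPM over the mean complex CPM, with 0.1 CPM added to each mean. Green bars are members, grey bars other models, and crosses models under 10 counts in every library; on sequence 22 the 8 models from the first to the last member all rise above 0.

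On sequence 100, gene 1047478 begins 74 bp after the end of gene 19986. The level of 19986 was 16.9 times that of 1047478 in WPG, 16.4 times in WPGY, 14.7 times in PDB and 16.8 times in MPY, in CPM. The pair thus kept nearly the same proportion in all 4 libraries. Model 1082696, which overlaps the end of 1047478 by 20 bp, had 143 CPM in WPG and 144 in WPGY, but 92.8 in PDB and 107 in MPY, a ratio of 1.33. How reads between such close models were assigned, and whether strand was used for it, is not given in the sources used here, so the values of closely spaced models may share reads.

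Other pairs did not keep their proportion. On sequence 126, genes 1065197 and 1108379 lie 451 bp apart, and the former had 11.5 times the CPM of the latter in WPG, 10.7 times in WPGY, 6.91 times in PDB and 5.65 times in MPY. Gene 1108379 had 252 CPM in WPG and 261 in WPGY, but 60.8 in PDB and 53.1 in MPY. On sequence 170, gene 1028066 had 4.41 times the CPM of 1087384 in WPG but 26.4 times in PDB, since the latter was near absent in the complex media. The next model there, 1087387, had 2.03 CPM in WPG and 1.76 in WPGY, 0.0572 CPM in PDB and no count in MPY, and missed the minimum level.

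On sequence 19, genes 1016757 and 254699 were close to each other in CPM in WPG, WPGY and PDB. In MPY the CPM of 1016757 was 1.86 times that of 254699, on 41 counts against 22. Their models span 1468 and 3335 bp, and in length-scaled counts they were not close. On that scale 1016757 had 15.2 against 6.41 for 254699 in WPG, 15.9 against 6.60 in WPGY and 0.989 against 0.396 in PDB. Gene 1016757 had 16.7 CPM in WPG and 17.2 in WPGY, but 0.992 in PDB and 0.855 in MPY. Gene 254699 had 15.9 CPM in WPG and 16.2 in WPGY, but 0.903 in PDB and 0.459 in MPY. The models beyond them, 1119920 and 1119931, had at most 3 counts in any library.

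The remaining groups were pairs. On sequence 45, genes 1077219 (21.8 CPM in WPG and 21.4 in WPGY) and 1077220 (18.1 and 18.6 CPM) were alike in CPM in the woody-plant-based media. They differed in the complex media, with 0.864 CPM in PDB and 0.750 in MPY for 1077219 and 3.58 and 1.88 CPM for 1077220. On sequence 204, gene 1089049 had 16.9 CPM in WPG and a ratio of 5.03, and gene 1089055 had 118 CPM in WPG and a ratio of 4.43. On sequence 119, genes 1084143 (23.0 CPM in WPG, ratio 4.75) and 983172 (109 CPM in WPG, ratio 11.8) lie 18144 bp apart with 2 near-silent models between them.

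Runs of consecutive models were then counted with a looser limit, chosen after the data were seen, of at least 1 CPM and 2-fold. Past this limit in favour of the woody-plant-based media were 756 models, which formed 26 runs of 3 or more, and 11 of these runs held a member of the set. The longest was the stretch of 8 models on sequence 22. In favour of the complex media 291 models passed, and they formed 7 runs of 3 or more, the longest of 5 models. Since the 2 numbers of models differ, the numbers of runs cannot be compared directly.

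A run of 6 models on sequence 44, from position 32955 to 59097, held the member 1099691. This gene had 125 CPM in WPG and 129 in WPGY, but 12.2 in PDB and 10.3 in MPY, a ratio of 10.2. On either side stood 1076961, with 651 CPM in WPG and 281 CPM in PDB, and 1076965, with 7.83 CPM in WPG and 0.534 CPM in PDB. The run thus mixed models of very different level and ratio.

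The gene of the largest ratio, 973256, had neighbours of the same kind. Model 683156, before it, had 11.4 CPM in WPG and 9.86 in WPGY, but 0.0445 in PDB and 0.104 in MPY and missed the minimum level by a little. Model 1122899, after it, had 1.63 CPM in WPG and 1.82 in WPGY, no count in PDB and 0.0208 CPM, or 1 count, in MPY. On sequence 157 the member 1050578 was followed by 987460, with 17.0 CPM in WPG and 18.3 in WPGY, but 0.629 in PDB and 2.56 in MPY. On sequence 272 the member 1091887, with 203 CPM in WPG and 195 in WPGY, but 36.5 in PDB and 25.4 in MPY, stood between 2 models of smaller ratio, 1116733 (569 CPM in WPG, ratio 2.30) and 998281 (183 CPM in WPG, ratio 3.49).

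The rule asked only that the lower of WPG and WPGY pass, which leaves the difference between them to be described. WPGY differs from WPG by its yeast extract. The ratio of WPGY to WPG over the 77 genes had a median of 0.977 and ran from 0.826 to 1.20, and no gene was 2-fold apart. Over the 6832 models of at least 10 CPM in both libraries the median was 0.996. The SD of the log2 ratio was 0.0873 for the 77 genes and 0.0816 for the 6832 models. Of the 77 genes, 68 (88.3%) lay within 10% of equality, against 90.5% of all. WPGY was the lower for 47 genes and the higher for 30, which is 61.0% lower against 53.4% of all models. On counting error alone, the interval of the ratio included 1 for 36 of the 77 genes, lay below 1 for 30 and lay above 1 for 11. The same intervals were not computed over the 6832 models, so these numbers do not set the 77 genes apart from them. How far 2 libraries of the same medium lie apart was not measured.

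Gene 143372 had the lowest ratio, with 94.6 CPM in WPG and 78.2 in WPGY, or 0.826 (interval 0.804 to 0.849). Gene 1074162, of the stretch on sequence 22, followed with 0.848, and gene 1071626 with 0.889. Gene 1050578 had the highest, with 22.6 CPM in WPG and 27.1 in WPGY, or 1.20 (interval 1.14 to 1.26), followed by 1113409 with 1.11 and 1096761 with 1.09. All 6 genes stayed above 4 times their higher complex library in both woody-plant libraries, as the rule requires.

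**Figure D4:**
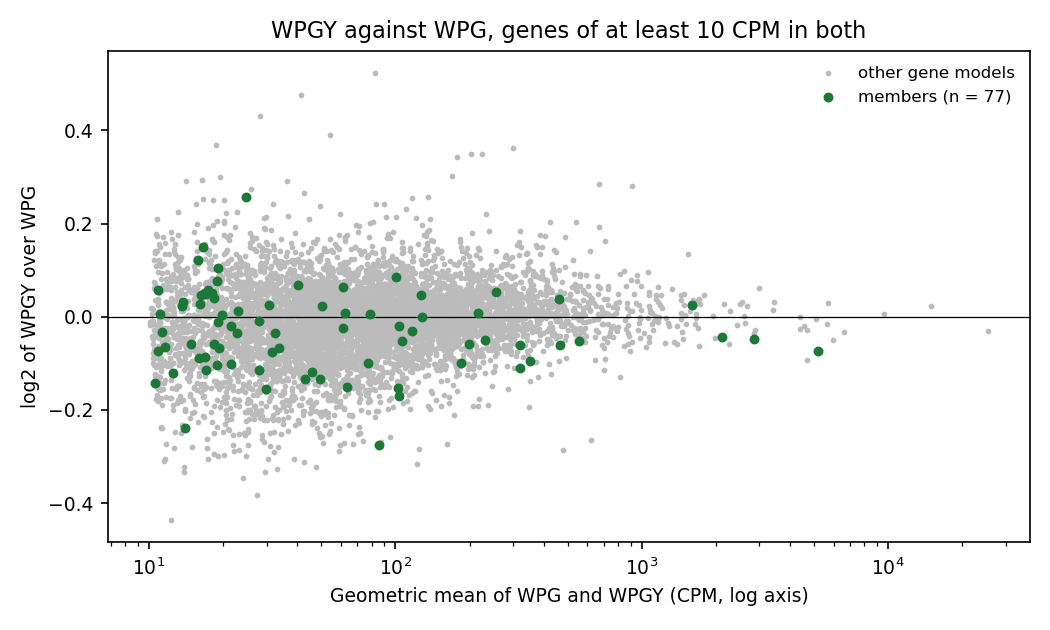
Log2 of the WPGY over the WPG value against the geometric mean of both in CPM (log axis) for models of at least 10 CPM in both libraries; green points are the 77 genes and grey points the other models. The 77 genes lie within the cloud of the other models, with ratios from 0.826 to 1.20.

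Between the complex media, PDB was the higher for 49 of the 77 genes and MPY for 28, which is 63.6% higher in PDB. Among the 8430 models of at least 1 CPM in PDB or MPY, 54.8% were higher in PDB. The rule capped this difference, and 45 of the 77 genes lay within 1.5-fold. At least 2-fold apart were 17 genes. The largest excess of PDB, 3.48 times, was that of 1074162, with 80 counts in PDB and 7 in MPY, which met the limit through the 0.1 CPM added to each value. The most abundant gene, 151253, was on the side of MPY, as were 1086390 (5.00 CPM in PDB but 13.5 in MPY) and 895199.

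The models of the set spanned from 275 to 5477 bp, introns included, with a median of 1368 bp. The median was 1604 bp over the 7228 models that reached 10 CPM and 1241 bp over all models. Of the 77 genes, 9 (11.7%) were shorter than 600 bp, against 6.18% of the 7228 models. Among the short ones were 1104324 and 895199, described above, and 1085724, of 475 bp, which had 236 CPM in WPG and 228 in WPGY, but 55.3 in PDB and 33.0 in MPY. In length-scaled counts 1085724 was the 5th highest of the set, with 665 in WPG. Gene 960635, of 452 bp, had 191 CPM in WPG and 178 in WPGY, but 42.0 in PDB and 31.2 in MPY, and was the 7th in length-scaled counts. The short model 1130392, of 275 bp, was 76th of 77 by CPM but 27th in length-scaled counts.

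The size of the set depended on which complex medium was asked for. Without any limit between PDB and MPY, 98 genes were beyond the 4-fold limit against both media, the chaperones left out. Against PDB alone 157 genes were, and against MPY alone 262. All 77 genes were among each of these. Leaving out either woody-plant library changed little, with 83 genes for WPG alone and 79 for WPGY alone.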

How the data were processed

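Paired reads of mRNA libraries were checked (FastQC), trimmed (Trimmomatic) and aligned by the authors with STAR. The reference was the genome of strain Tbo3840, here named by its assembly, Tubbor1, and featureCounts assigned the reads to gene models. The deposited values are raw counts per gene model, without normalization for depth or length. The strand and multi-mapping settings are not given in the sources used here.

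Counts were divided by the library total and scaled to 1000000 (CPM). The RefSeq gene table for Tubbor1 gave the span and position of 12345 models. Ratios carry exact conditional 95% intervals. A library at 0 counts would enter a ratio at a floor of 3 counts. Genes named are the 10 highest, the 10 of largest ratio, those at the limits, those with a described function, the extremes of WPGY over WPG and neighbouring members. Other genes were named after their values were seen, and the members and the 15 keyword lists were chosen with earlier results of these data known. Sequences were not used here. Alternatives in scaling, minimum, limits, pseudocount and libraries used were tried, with their effect in the closing section. The procedure was tested on simulated data. Calculations ran in Python 3.11.15 with scipy 1.17.1, pandas 2.3.3 and numpy 2.4.6, and plots were drawn with matplotlib 3.10.9.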

Additional observations from a re-analysis of the deposited data

How the results depend on the processing

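The number of genes, 77, lay between 61 and 114 under 12 of the alternatives. It was 47 with a minimum of 20 CPM, 604 with no minimum, 132 with a 3-fold limit, 22 with an 8-fold limit, 157 without MPY and 262 without PDB. Median-of-ratios scaling gave 66 genes, all of them among the 77, and moved the median gene by between -0.07 (WPG) and 0.08 (MPY) on the log2 scale. Length-scaled counts gave 67 genes, of which 60 were among the 77, and thinning every library to the depth of MPY gave 75, of which 72 were. The median log2 ratio of the 77 genes, 2.56, was 1.85 with 5 CPM added to each value and 2.82 with the mean of each pair of libraries, and stayed between 2.39 and 2.67 under the other 6 alternatives. In length-scaled counts the summed share was 1.76% (WPG), 1.71% (WPGY), 0.232% (PDB) and 0.221% (MPY), and without gene 151253 it was 1.27%, 1.24%, 0.176% and 0.135% of the counts in the same order. In the annotated part of the models, 5 were past the 4-fold limit in favour of the woody-plant-based media (31 at 2-fold, 39 with no minimum) and 3 in favour of the complex media (19 at 2-fold, 7 with no minimum, 5 under median-of-ratios scaling). For the keyword list for chaperones the numbers at 2-fold were 3 and 0. Windows of 5, 10 and 50 kb, chosen after the data were seen, gave 15, 17 and 21 members near another member, against 19 at 20 kb. Among the 77 genes, 1 in PDB and 2 in MPY had fewer than 10 counts. The causes of these differences were not tested.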
